A study of Mus musculus with 10 samples.

Results

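The amino acid transporters described here are the mouse solute carrier genes of the families Slc1, Slc3, Slc6, Slc7, Slc36, Slc38 and Slc43. A probe set, the group of array probes that reads 1 transcript, was a member when the platform annotation gave it exactly 1 symbol of these families. This found 118 of 45137 probe sets, for 58 of 18194 named genes. Of them 65 lay on the array type MOE430A (41 genes) and 53 on MOE430B (31 genes), and 14 genes had probe sets on both. A probe set was tested only if its mean level lay above the 40th percentile of its array type. That filter kept 33 members (24 genes) on MOE430A and 37 (26 genes) on MOE430B.

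The RNA came from mouse embryos at embryonic day 5.5, from matings of B6SJLF1 with CerlP-GFP mice, whose reporter marks the anterior visceral endoderm. Ad is the anterior distal fragment, with the fluorescent endoderm and the epiblast under it, and Pp is the posterior proximal fragment from the other side, with epiblast and proximal visceral endoderm. Pp was cut up to the border with the extraembryonic region. The third kind of sample is the whole embryo, which had the same genetic background, and no sample was treated. On each array type there were 2 arrays of Ad, 2 of Pp and a single one of the whole embryo. The labels do not say how many embryos went into an array or whether the replicates are separate embryos. The p-values therefore rest on a spread between arrays that may be technical. The study looked for genes with more RNA in Ad, and the whole embryo served for normalization, per the series' design text.

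Amino acid transporters move amino acids across the plasma membrane or the lysosomal membrane, driven by sodium, protons or exchange for another amino acid. Slc1 members carry acidic and small neutral amino acids, Slc6 members carry neurotransmitters, amino acids and related solutes, and Slc38 members carry glutamine and other neutral amino acids with sodium. Many Slc7 members are light chains that reach the membrane only when bound to an Slc3 heavy chain. At this stage the visceral endoderm takes up nutrients from the maternal side for the epiblast, and amino acids also control growth through the kinase complex mTORC1.

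Marker genes were checked first. Of 7 anterior visceral endoderm markers on MOE430A, 4 were higher in Ad than in Pp in limma (Lefty1, Hesx1, Lhx1 and Foxa2, adjusted p between 0.00896 and 0.0237). The summed signal of the 7 was 21302 and 16604 in the Ad arrays and 6034 and 6009 in the Pp arrays. The summed signal of 6 extraembryonic ectoderm markers was 4807 and 4518 in Ad, 4538 and 9816 in Pp (the higher being replicate 2), and 11554 for the whole embryo. The decidual hormone gene Prl8a2, a marker of the maternal tissue around the embryo, had a signal of 241 to 564 over the fragments, against 6063 for the whole embryo. Igfbp1, Hba-a1 and Alas2, other maternal markers, lay below the filter. In RNA from whole tissue, fewer cells of a type and less RNA per cell cannot be told apart.

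No transporter was called between Ad and Pp. Of 33 tested transporter probe sets on MOE430A 0 passed an adjusted p of 0.05 in limma, a linear model fitted over all kept probe sets, beside 0.169% of all 13575. On MOE430B 0 of 37 passed, beside 0.111% of all 13506. At an unadjusted p under 0.05 there were 3 on MOE430A (11.7% of all kept probe sets), 1 higher (5.8%) and 2 lower (5.93%). There were 7 on MOE430B (10.4% of all), 1 higher (5.09%) and 6 lower (5.28%). On the centred log2 scale with the pseudocount, 0 transporters had their Ad and Pp arrays at least 1.5-fold apart without overlap, while 0.28% (higher in Ad) and 0.0589% (lower) of all did on MOE430A, and on MOE430B 0.548% and 0.237%. The count of 0 on MOE430A rested on both Pp arrays. Transporters passed with either Pp array left out, with the spread then taken from the Ad pair alone. The number passing over all kept probe sets rose as well.

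The median log2 difference of the transporters, Ad minus Pp, was -0.05 on MOE430A and -0.17 on MOE430B, beside -0.03 and -0.01 over all kept probe sets. On MOE430A 10 of 33 were positive and 23 negative, and with no centring of the arrays 21 were positive and 12 negative (median 0.02). On MOE430B 6 were positive and 31 negative, and with no centring 10 and 27. After centring, arrays did not overlap, with Ad lower, in 10 of 33 members on MOE430A and 16 of 37 on MOE430B, where 29.1% and 23.4% of all kept probe sets did so. Ad lay above Pp without overlap in 3 members on each array type (16.2% and 19.3% of all).

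By family, median log2 differences of Ad minus Pp on MOE430A were -0.04 in Slc1 (4 kept probe sets), -0.03 in Slc3 (2), -0.04 in Slc6 (9), -0.11 in Slc7 (8) and -0.04 in Slc38 (9), and the single Slc43 probe set was at 0.10. On MOE430B they were -0.11 in Slc1 (4), -0.08 in Slc6 (9), -0.15 in Slc7 (6), -0.17 in Slc36 (3), -0.29 in Slc38 (12) and -0.23 in Slc43 (3). Slc38 on MOE430B thus had the lowest family median. For fragments minus whole embryo the medians on MOE430A were 0.08 in Slc1, -0.10 in Slc3, 0.03 in Slc6, 0.03 in Slc7 and -0.18 in Slc38. On MOE430B they were 0.39 in Slc1, 0.08 in Slc6, 0.58 in Slc7, -0.01 in Slc36, 0.07 in Slc38 and 0.31 in Slc43. No difference between families was tested.

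Probe sets of 6 transporter genes were called between the fragments and the whole embryo. On MOE430A 4 of 33 members passed, 2 higher and 2 lower in the fragments, which is 12.1% beside 9.78% of all kept probe sets (4.6% higher, 5.19% lower). On MOE430B 3 of 37 passed, all lower in the fragments, which is 8.11% beside 2.21% of all (0.407% higher, 1.81% lower). By the called probe sets, Slc7a3 and Slc7a7 were higher in the fragments, and Slc6a8, Slc43a3, Slc6a6 and Slc7a1 were lower. The Slc6a6 probe sets kept on MOE430A went the other way without passing. This comparison rests on 1 whole-embryo array of each type, whose spread was taken to equal that of the fragments. All 4 fragments lay above the whole embryo, after centring, in 10 members and below it in 10 on MOE430A (38.5% and 22.7% of all), and in 17 and 6 on MOE430B (28.8% and 23.5%). Median log2 differences of the transporters, fragments minus whole embryo, were -0.01 on MOE430A and 0.13 on MOE430B, beside 0.05 and 0.03 over all.

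**Figure D1:**
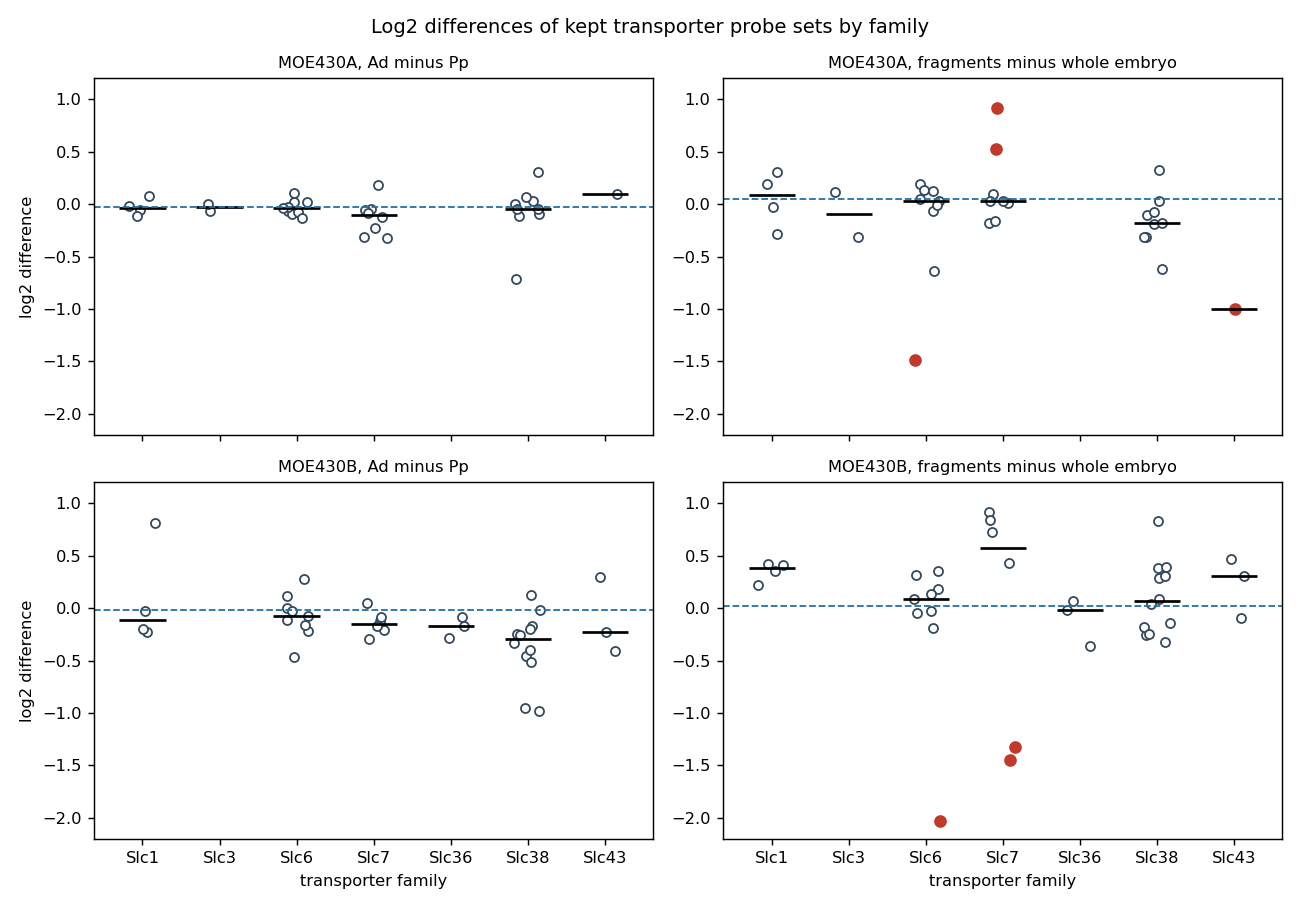
Log2 differences (vertical axis) of the 33 and 37 kept transporter probe sets by family, for MOE430A (top) and MOE430B (bottom), Ad minus Pp on the left and fragments minus whole embryo on the right. Each circle is a probe set, filled red where its adjusted p was under 0.05, black bars are family medians and the dashed line is the median of all kept probe sets. The 7 filled points all lie in the fragment comparison, in Slc6, Slc7 and Slc43.

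Slc7a3 was higher and Slc7a1 lower in the fragments, Slc7a1 by 2 of its 3 probe sets. Slc7a3 encodes CAT3, which takes up arginine and lysine. Its signal was 5829 and 6436 in the Ad arrays, 5850.0 and 4459 in the Pp arrays and 3019 in the whole embryo. All 4 fragments lay above the whole embryo, and the Ad and Pp arrays overlapped. The fragments averaged 5644 ± 839 (SD, n = 4), 1.89-fold the whole embryo (95% interval of the log2 difference 0.56 to 1.28; limma adjusted p = 0.0199). Between Ad (6133 ± 429, n = 2) and Pp (5154 ± 984, n = 2) the log2 difference was 0.18 (interval -0.14 to 0.51; adjusted p = 0.615). Without Pp replicate 1 that difference was 0.36 (adjusted p = 0.0392), and without Pp replicate 2 it was 0.0021 (adjusted p = 0.995).

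Slc7a1 encodes CAT1, the more widely expressed uptake carrier for the same amino acids. One probe set was at 377 and 437 in Ad, 364 and 485 in Pp and 1137 in the whole embryo. The other probe set was at 273 and 264 in Ad, 254 and 341 in Pp and 715 in the whole embryo. In both, the 4 fragments lay together and the whole embryo lay above them. Slc7a1 was 2.72-fold and 2.50-fold lower in the fragments by these probe sets (log2 differences -1.45 and -1.32; limma adjusted p = 0.0167 and 0.0203). Another Slc7a1 probe set, on MOE430A, lay below the filter and was not tested. It was at 257 and 281 in Ad, 306 and 259.8 in Pp and 244 for the whole embryo, with no excess there. Slc7a2, which encodes the related CAT2, was at 68.4 and 55.4 in Ad, 79.5 and 55.5 in Pp and 44.6 in the whole embryo by its 1 kept probe set, and did not pass (0.43, adjusted p = 0.410).

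Slc7a7 encodes y+LAT1, the light chain that exports cationic amino acids at the basolateral side of epithelia in exchange for sodium and neutral amino acids. On MOE430A it was at 6132 and 5885 in Ad, 5867 and 6682 in Pp and 4449 in the whole embryo. The fragments lay above the whole embryo by 1.44-fold (6141 ± 380.4, n = 4; log2 difference 0.52, interval 0.29 to 0.76; limma adjusted p = 0.0297). On MOE430B it was at 783 and 755 in Ad, 716 and 835 in Pp and 459 in the whole embryo, a log2 difference of 0.73 that did not pass (adjusted p = 0.0815). It passed with an intensity trend (0.0431), with the larger pseudocount (0.0454) and without either Pp array (0.0357 and 0.0362). Ad and Pp differed by -0.13 and -0.08 on the log2 scale (adjusted p = 0.595 and 0.862).

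These calls depended on which arrays gave the spread. Without Ad replicate 1 the adjusted p of Slc7a3 was 0.0786 and that of Slc7a7 0.118, and without Ad replicate 2 they were 0.103 and 0.131. Without Ad replicate 3 the Slc7a1 probe sets had adjusted p = 0.0957 and 0.110, and without Ad replicate 4 they had 0.0866 and 0.135. Without a Pp array, where the spread comes from the Ad pair, these calls all held, with adjusted p down to 2.46e-06 for Slc7a3, 0.000283 for Slc7a7 and 0.00230 for Slc7a1. With no filter on low levels Slc7a1 had adjusted p = 0.0621 and 0.0717. Beside Slc7a3 and Slc7a7, 3 of 4 kept epiblast markers (Pou5f1, Otx2, Utf1) were also called higher in the fragments on MOE430A. So were 3 of 6 visceral endoderm markers (Afp, Apoa1, Rbp4), beside 4.6% of all kept probe sets. The kept markers not called were Fgf5 (log2 difference 0.16), Ttr (0.24), Amn (-0.0038) and Cubn (-0.13), the last 2 with the opposite sign. The summed signal of the 5 epiblast markers was 12314 to 14779 over the fragments, against 8752 for the whole embryo. That of the 6 visceral endoderm markers was 45161 to 61830, against 43991. The part of these markers in the transporter differences was not tested.

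**Figure D2:**
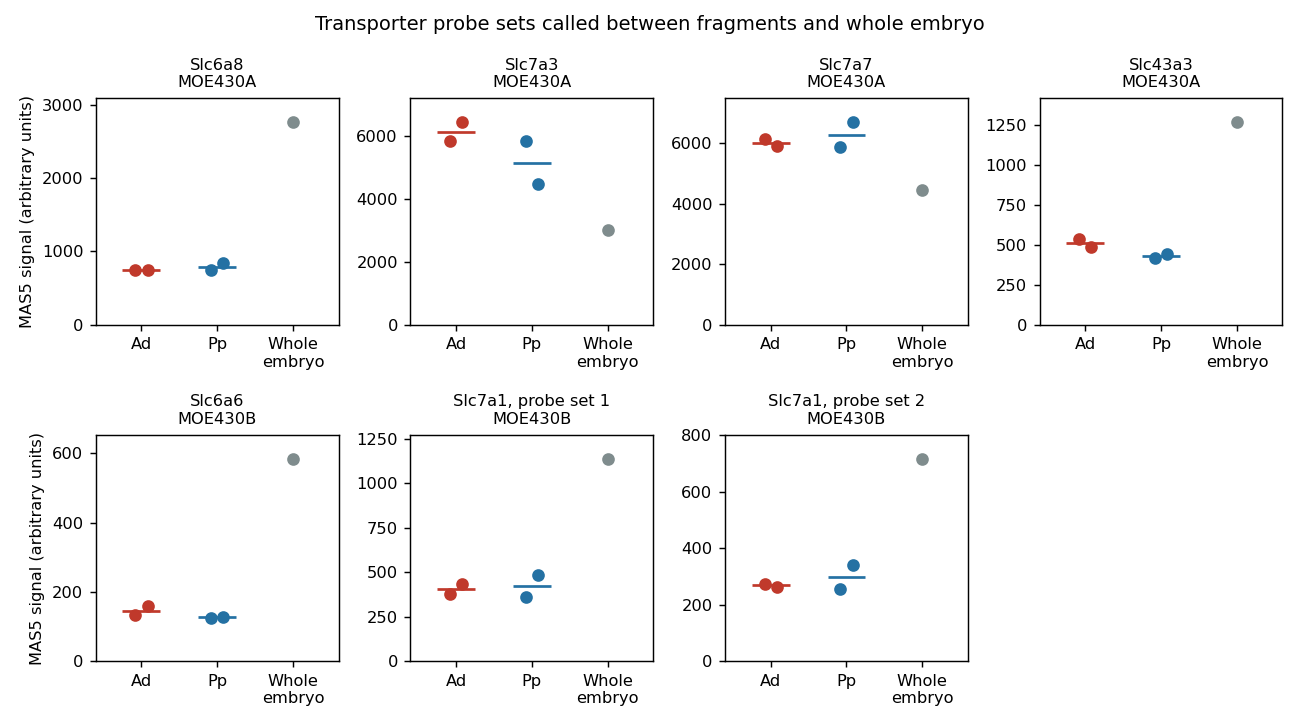
MAS5 signal in arbitrary units (vertical axis from 0) of the 7 transporter probe sets called between the fragments and the whole embryo, with 1 point per array, in Ad (red), Pp (blue) and the whole embryo (grey); bars are the means of the 2 Ad and the 2 Pp arrays. The whole embryo lies below all fragments for Slc7a3 and Slc7a7 and above all of them in the other 5 panels.

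Promoter windows of Slc7a7 (higher in the fragments) and Slc7a1 (lower) are shown because amino acid shortage acts on many transporter genes through the factor Atf4. RefSeq windows on GRCm38.p6, running from 250 bases before to 50 after each annotated start, were found for 41 of the 58 genes (62 windows). The following motifs were searched on both strands: TGATGNAA, the C/EBP-ATF element that Atf4 binds, TATAAA, the TATA box, and CACGTG, the E-box, each counted on its own even where matches overlapped. Slc7a7 had 5 windows, and only the window with the most matches, 2 of the C/EBP-ATF element, is printed. It is on chromosome 14 (chr14:54417895-54418194, minus strand). Both Slc7a1 windows are printed, and they are on chromosome 5 (chr5:148399855-148400154 and chr5:148392766-148393065, minus strand). Capitals mark matches.
Slc7a7, start 1: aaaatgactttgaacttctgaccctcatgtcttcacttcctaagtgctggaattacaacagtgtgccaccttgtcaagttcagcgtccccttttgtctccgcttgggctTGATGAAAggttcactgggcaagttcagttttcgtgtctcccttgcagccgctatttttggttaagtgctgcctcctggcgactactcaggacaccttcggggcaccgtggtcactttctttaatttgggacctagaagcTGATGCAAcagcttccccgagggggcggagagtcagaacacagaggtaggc
Slc7a1, start 1: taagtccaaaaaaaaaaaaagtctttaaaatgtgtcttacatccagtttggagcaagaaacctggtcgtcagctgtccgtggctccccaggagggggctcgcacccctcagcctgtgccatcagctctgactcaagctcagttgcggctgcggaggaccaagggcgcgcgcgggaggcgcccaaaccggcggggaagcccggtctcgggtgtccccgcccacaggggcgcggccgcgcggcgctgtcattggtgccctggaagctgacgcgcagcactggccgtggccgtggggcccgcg
Slc7a1, start 2: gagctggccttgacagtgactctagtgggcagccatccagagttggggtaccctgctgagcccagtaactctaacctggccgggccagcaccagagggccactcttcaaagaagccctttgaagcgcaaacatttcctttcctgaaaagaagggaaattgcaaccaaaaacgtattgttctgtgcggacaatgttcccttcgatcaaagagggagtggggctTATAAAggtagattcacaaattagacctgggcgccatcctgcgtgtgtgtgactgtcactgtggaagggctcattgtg

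In Slc7a7 the matches TGATGAAA and TGATGCAA begin 141 bases and 1 base before the annotated start, and the second is also in the window of the next start. Slc7a7 windows 3, 4 and 5 held none of the 3 motifs. In Slc7a1 the first window held none of the 3 motifs, and the second held TATAAA 28 bases before the start. C/EBP-ATF matches were present in 4 of the 41 transporter genes (Slc1a4, Slc6a21, Slc7a11 and Slc7a7), which is 9.76% beside 4.51% of all 27025 genes in the table. E-box matches were present in 9 (22.0% beside 8.09%) and TATA boxes in 6 (14.6% beside 15.7%). A match describes the letters of the window only.

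Heavy chains showed no called difference with all arrays in. Slc3a2 encodes 4F2hc, the partner of Slc7a5, Slc7a6, Slc7a7, Slc7a8, Slc7a10 and Slc7a11. It was at 6201 and 5666 in Ad, 4971 and 6389.9 in Pp and 5618 in the whole embryo, so the whole embryo lay within the range of the fragments. The interval of its log2 difference was -0.31 to 0.31 for Ad minus Pp and -0.23 to 0.47 for fragments minus whole embryo. Slc3a1 encodes rBAT, the partner of Slc7a9 in apical cystine uptake. It was at 818 and 676 in Ad, 721 and 759 in Pp and 1049 in the whole embryo, which lay above all fragments without passing (log2 difference -0.31, adjusted p = 0.109). It passed without Pp replicate 1 (0.0401) and without Pp replicate 2 (0.0214).

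With all arrays in, light chains other than Slc7a7 did not pass in either comparison. Without Pp replicate 1, Slc7a5 (adjusted p = 0.0399) and the brightest Slc7a6 probe set (0.0243) passed in Ad minus Pp, and the dimmer Slc7a6 probe set (0.0484) in fragments minus whole embryo. Slc7a5, which encodes the leucine carrier LAT1, was at 1226 and 1409 in Ad, 1333 and 1673 in Pp and 1724 in the whole embryo, with overlapping Ad and Pp arrays (Ad minus Pp -0.23, adjusted p = 0.514). Slc7a6, which encodes y+LAT2, was at 1459 and 1398 in Ad and 1684 and 1806 in Pp by its brightest probe set, without overlap (log2 difference -0.32, interval -0.49 to -0.14; unadjusted p = 0.00456, limma adjusted p = 0.250). Its other probe set had overlapping arrays and a log2 difference of -0.06. Slc7a9, which encodes the cystine carrier b0,+AT, was at 1721 and 1294 in Ad and 1854 and 1812 in Pp (log2 difference -0.32, adjusted p = 0.393).

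Of the remaining light chains, Slc7a10, which carries small neutral amino acids, was at 549 and 468 in Ad, 539 and 496 in Pp and 540.1 in the whole embryo (Ad minus Pp -0.09, interval -0.28 to 0.11). Slc7a8 (335 to 422 over the 5 MOE430A arrays) and the cystine-glutamate exchanger gene Slc7a11 (293 to 314) lay below the filter and were not tested. Among the light chains, Slc7a7 alone was called, though the differences between light chains were not tested.

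**Figure D3:**
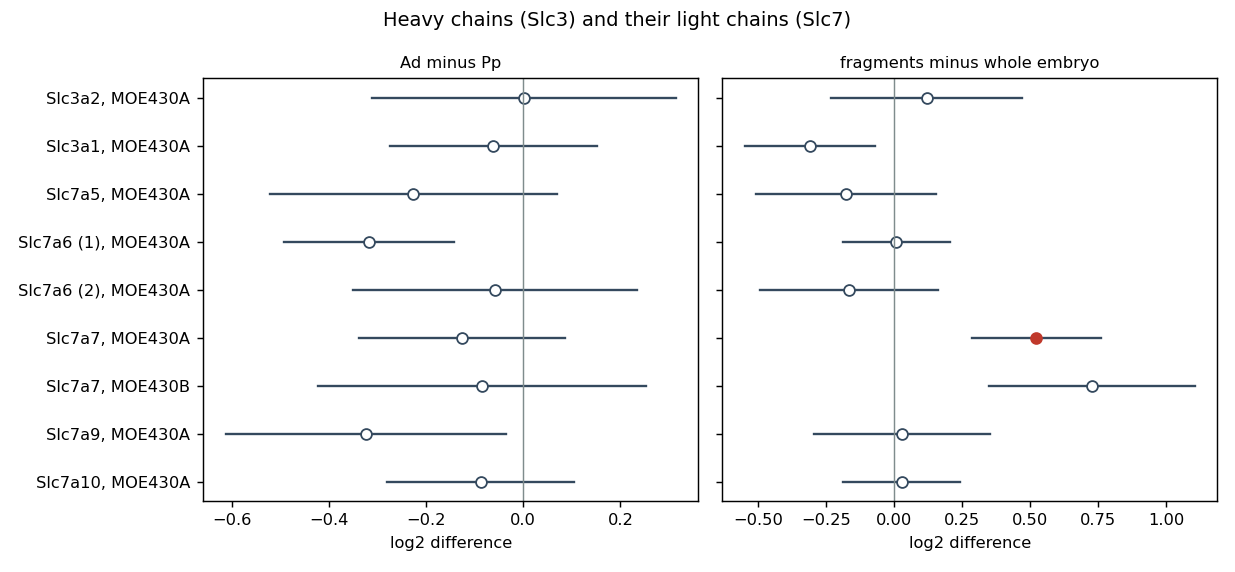
Fitted log2 differences (points) with 95% intervals (lines) of the heavy chain genes Slc3a2 and Slc3a1 and the kept light chain probe sets, Ad minus Pp on the left and fragments minus whole embryo on the right; numbers in brackets separate probe sets of 1 gene. The red point marks the only call, Slc7a7 on MOE430A at 0.52, and the intervals of Slc3a2 span 0 on both sides.

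In Slc6, 2 carriers of organic osmolytes and energy substrates were lower in the fragments. Slc6a6 encodes the taurine transporter. On MOE430B it was at 133 and 159 in Ad, 125 and 128 in Pp and 583 in the whole embryo, so all fragments lay together well below it. The fragments averaged 137 ± 15.6 (n = 4), 4.08-fold lower (log2 difference -2.03, interval -2.42 to -1.64; limma adjusted p = 0.00276). The 3 Slc6a6 probe sets kept on MOE430A went the other way, with log2 differences of 0.03, 0.13 and 0.19 (adjusted p = 0.907, 0.332 and 0.194), so the call rests on 1 of 4 probe sets.

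Slc6a8 encodes the creatine transporter. By the called probe set it was at 741 and 747 in Ad, 742 and 836 in Pp and 2763 in the whole embryo. That is 2.81-fold lower in the fragments (767 ± 46.7, n = 4; log2 difference -1.49, adjusted p = 0.000723). The brighter Slc6a8 probe set was at 1872 and 1795 in Ad, 1265 and 1984 in Pp and 2965 in the whole embryo. It had the same order without passing (log2 difference -0.64, adjusted p = 0.111), but it passed without Pp replicate 1 (0.000927) and without Pp replicate 2 (1.47e-05). Ad and Pp did not differ in a called way by either with all arrays in (-0.13 and 0.11).

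Slc43a3 belongs by name to an amino acid carrier family but encodes a nucleobase transporter. Its signal was 537 and 486 in Ad, 418 and 441 in Pp and 1269 in the whole embryo. The fragments (471 ± 52.6, n = 4) were 2.0-fold lower than the whole embryo (interval of the log2 difference -1.20 to -0.81; limma adjusted p = 0.00183), and their mean lay close to the filter level of 464. The calls of Slc6a6, Slc6a8 and Slc43a3 held in every setting that tested them and with each Ad or Pp array left out, with the highest adjusted p at 0.0241, 0.0120 and 0.0229. Only a stricter filter, at the 60th percentile, removed Slc43a3 from the test. Beside these lower genes, the summed signal of the 5 maternal markers on MOE430A was 2237 to 2551 over the fragments, against 8189 for the whole embryo. That excess was in Prl8a2, while Des (1101 to 1274, against 1136), Igfbp1 (288 to 332, against 353), Hba-a1 (334 to 389, against 320.5) and Alas2 (199 to 214, against 317) differed little or by far less. The extraembryonic ectoderm marker Hand1 was also lower in the fragments (adjusted p = 0.0201). The part of either tissue was not tested.

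Other Slc6 probe sets showed little. The glycine transporter gene Slc6a9 had log2 differences from -0.03 to 0.14 over both probe sets and both comparisons. Slc6a2, the noradrenaline transporter gene, was at 365 and 380.5 in Ad, 414 and 408 in Pp and 342 in the whole embryo by its brightest MOE430B probe set (Ad minus Pp -0.21, adjusted p = 0.627). Slc6a11, a GABA transporter gene, was at 40.1 and 38.1 in Ad and 53.6 and 55.5 in Pp by its dimmer probe set, without overlap and close to the filter level of 37.2 (log2 difference -0.47, adjusted p = 0.415). Its brighter probe set had overlapping arrays (-0.16). A further Slc6a2 probe set, singled out after its values were seen, lay below the filter. It was at 7.51 and 19.0 in Ad, 8.85 and 11.8 in Pp and 341 in the whole embryo, and it was not tested.

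The Slc1 family held no call with all arrays in. Slc1a5 encodes ASCT2, an exchanger of glutamine and other neutral amino acids. It was at 2256 and 1954 in Ad, 1759.6 and 2660.0 in Pp and 2819 in the whole embryo on MOE430A, with overlapping Ad and Pp arrays (log2 difference -0.11, interval -0.55 to 0.33). It passed without Pp replicate 1 in Ad minus Pp (-0.38, adjusted p = 0.0317) and without Pp replicate 2 in fragments minus whole embryo (-0.42, adjusted p = 0.00432). Slc1a3 encodes the glutamate transporter GLAST. By its dimmer MOE430B probe set it was at 201 and 127 in Ad, 83.1 and 80.8 in Pp and 87.3 in the whole embryo. There Ad lay above Pp without overlap, with the nearest arrays over 1.5-fold apart in signal but not on the centred scale with the pseudocount, and the difference did not pass (0.81, interval 0.28 to 1.34; unadjusted p = 0.00924, adjusted p = 0.402). The other kept Slc1a3 probe sets had Ad minus Pp differences of 0.08 on MOE430A and -0.19 on MOE430B, so the gene showed no shared direction. In fragments minus whole embryo the MOE430A probe set was at 0.31 (adjusted p = 0.0671). It passed with an intensity trend (0.0490), without Pp replicate 1 (0.0227) and without Pp replicate 2 (0.0151).

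Slc38 held the members furthest apart between Ad and Pp. On MOE430B 11 of its 12 kept probe sets were lower in Ad (median log2 difference -0.29, beside -0.01 over all), 8 of them without overlap (23.4% of all kept probe sets), and 0 passed. On MOE430A the median of its 9 kept probe sets was -0.04, beside -0.03 over all. Probe sets of 1 gene are not independent, and 6 of the 12 belong to Slc38a9. Against the whole embryo, all 5 kept Slc38a10 probe sets on MOE430A, singled out after their values were seen, lay lower in the 4 fragments. This held for 22.7% of all kept probe sets. The log2 differences of the 5 were -0.32 to -0.07, and 0 passed. Further Slc38a10 probe sets, below the filter, went the other way. They were at 406 to 470 over the fragments against 344 in the whole embryo, and at 217 to 260 against 202.

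Slc38a9 encodes a lysosomal carrier that signals arginine to mTORC1. Its brightest probe set, whose ID marks probes that may also match other transcripts, was at 289.9 and 197 in Ad, 375 and 531 in Pp and 360.3 in the whole embryo (log2 difference of Ad minus Pp -0.95, interval -1.51 to -0.38; unadjusted p = 0.00575, limma adjusted p = 0.372). Another probe set, without that mark, was at 220.0 and 142 in Ad, 270.4 and 430 in Pp and 279 in the whole embryo (-0.98, adjusted p = 0.402). In both, Ad lay below Pp without overlap. The whole embryo lay between Ad and Pp by the first, and within the range of Pp by the second. The other 4 kept probe sets were at -0.52 to -0.20, of which 1 had overlapping arrays after centring. The adjusted p of the first 2 stayed above 0.05 under all settings, with the lowest at 0.100 and 0.0899.

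**Figure D4:**
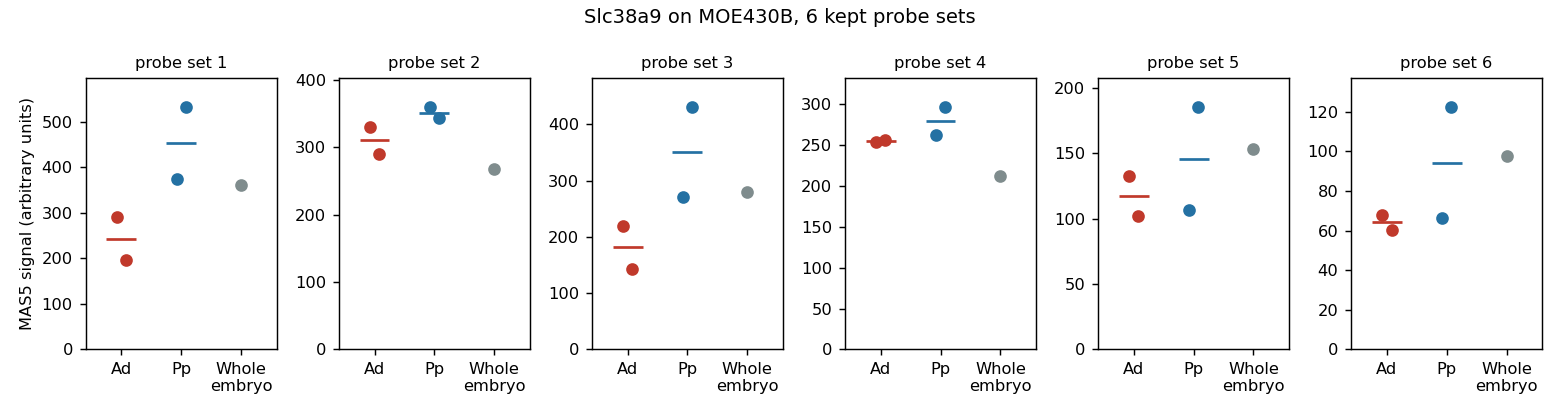
MAS5 signal in arbitrary units (vertical axis from 0) of the 6 kept Slc38a9 probe sets on MOE430B, ordered by mean signal, with 1 point per array in Ad (red), Pp (blue) and the whole embryo (grey) and bars at the means of 2 arrays. Probe sets 1 and 3 show the widest gap between Ad and Pp, while the signals of probe sets 5 and 6 overlap.

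Slc38a6 and Slc38a7, named here after their values were seen, also had lower values in Ad without overlap. Slc38a7 encodes a lysosomal glutamine exporter. It was at 517 and 468 in Ad and 583 and 657 in Pp (log2 difference -0.40, adjusted p = 0.436). Slc38a6 was at 617 and 536 in Ad and 760.1 and 743 in Pp (-0.46, adjusted p = 0.423). Slc38a2 encodes SNAT2, a sodium-coupled carrier induced by amino acid shortage, and on MOE430A it lay higher in Ad (3313 and 3623) than in Pp (2928 and 2347), with 3458 in the whole embryo. That difference did not pass (0.30, unadjusted p = 0.0350, adjusted p = 0.396), and its MOE430B probe sets were at 0.13 and -0.25. The MOE430A probe set passed without Pp replicate 1 (0.44, adjusted p = 0.0128). The brighter Slc38a2 probe set on MOE430B was at 455 and 472 in Ad, 588 and 272 in Pp and 237 in the whole embryo. Its fragments minus whole embryo difference was 0.83 and did not pass (limma adjusted p = 0.347). The dimmer one was at 0.39 and the MOE430A probe set at -0.10, also without passing. Slc38a1, a related carrier, was at 560.3 and 848 in Ad and 750 and 725 in Pp on MOE430B, with overlapping arrays.

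Slc38a4 encodes SNAT4, a carrier of neutral amino acids that is imprinted in the mouse placenta. It was at 506 and 400.2 in Ad, 461 and 1432 in Pp (the higher being replicate 2) and 1173 in the whole embryo. A second probe set, below the filter, was at 208 and 172 in Ad, 190.02 and 456 in Pp and 373 in the whole embryo. Pp replicate 2 and the whole embryo were thus high and the other 3 fragments low. The log2 difference of Ad minus Pp was -0.71 with an interval of -1.64 to 0.22 (adjusted p = 0.514). Without Pp replicate 1 it was -1.34, and without Pp replicate 2 it was -0.083, with the spread then taken from the Ad pair alone. Fragments minus whole embryo gave -0.62 (adjusted p = 0.392), which was -0.31 without Pp replicate 1 and -0.93 without Pp replicate 2. The extraembryonic ectoderm markers Elf5 (340.2 and 296 in Ad, 601 and 2432 in Pp, 2194 in the whole embryo) and Bmp4 (744 and 605 in Ad, 573 and 2359 in Pp, 1595 in the whole embryo) were high in the same arrays. Of the whole list of 6, 5 (Elf5, Bmp4, Hand1, Cdx2 and Esrrb, not Tfap2c) had their highest fragment value in Pp replicate 2 with the other fragments below the whole embryo. That order sets no size, and the step was small in Cdx2 (1689 in Ad replicate 2, 1784 in Pp replicate 2, 1821 in the whole embryo). The share of all probe sets with this order was not counted. The part of these markers in the Slc38a4 values was not tested.

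**Figure D5:**
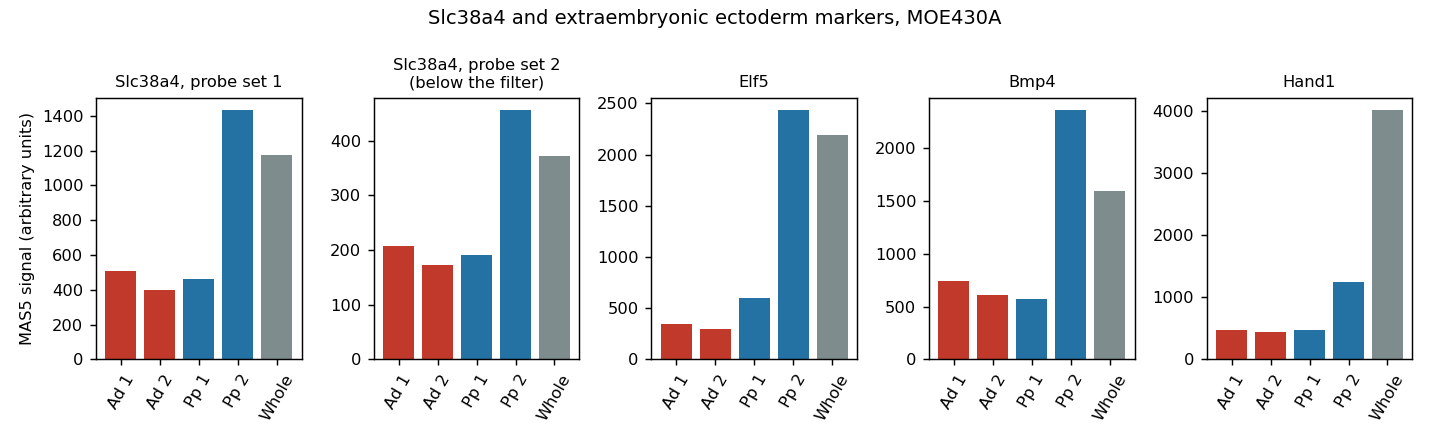
MAS5 signal in arbitrary units (vertical axes from 0, a scale for each panel) on the 5 MOE430A arrays, for both Slc38a4 probe sets and for the extraembryonic ectoderm markers Elf5, Bmp4 and Hand1; bars are single arrays of Ad (red), Pp (blue) and the whole embryo (grey). In each panel Pp replicate 2 stands above the other 3 fragments, at 1432 for the kept Slc38a4 probe set.

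The proton-coupled family Slc36 had 3 kept probe sets, all on MOE430B and none called. Slc36a2, a carrier of glycine and proline, was at 349 and 390.1 in Ad, 378 and 486 in Pp and 378 in the whole embryo (Ad minus Pp -0.29, adjusted p = 0.589). Slc36a4, a high-affinity carrier of proline and tryptophan, was at 70.3 and 71.6 in Ad, 67.3 and 86.9 in Pp and 96.7 in the whole embryo (fragments minus whole embryo -0.36, adjusted p = 0.356). In Slc43, Slc43a1 encodes LAT3, a carrier of large neutral amino acids, and was at 266 and 297 in Ad, 224 and 207 in Pp and 174 in the whole embryo. Its arrays did not overlap in either comparison, and neither passed (0.29 and 0.47, adjusted p = 0.543 and 0.228). Slc43a2, which encodes the related LAT4, had probe sets at -0.23 and -0.41 for Ad minus Pp (adjusted p = 0.614 and 0.432).

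Slc7a14, a lysosomal member, and Slc7a15, named here after its values were seen, came close to the threshold between the fragments and the whole embryo. Slc7a14 was at 54.8 and 68.1 in Ad, 70.6 and 74.9 in Pp and 30.1 in the whole embryo (log2 difference 0.92, limma adjusted p = 0.0509). It passed with the replicate number as a block (adjusted p = 0.0415), with no pseudocount (0.0455) and without either Pp array (0.0292 and 0.0208). Slc7a15 was at 60.9 and 68.6 in Ad, 55.9 and 60.6 in Pp and 29.3 in the whole embryo (0.84, adjusted p = 0.0510), and it passed with no pseudocount (0.0419) and without either Pp array (0.0280 and 0.0210). For these probe sets of both genes, the whole-embryo value lay under the filter level of 37.2, so the size of the difference depends on the pseudocount. Another Slc7a14 probe set, below the filter, was at 32.1 and 32.4 in Ad, 44.1 and 40.9 in Pp and 34.0 in the whole embryo. There Ad lay below the whole embryo and Pp above it.

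The filter removed 48 member probe sets, and 17 genes had none left. These were the glutamate transporter genes Slc1a6 and Slc1a7, the neurotransmitter, betaine and neutral amino acid carriers Slc6a3, Slc6a4, Slc6a5, Slc6a7, Slc6a12, Slc6a13, Slc6a14, Slc6a15 and Slc6a18, and Slc7a8, Slc7a11, Slc7a12, Slc7a13, Slc36a3 and Slc38a5. The values used here carry no detection call, so these genes were not tested and are not called absent.

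Genes around the transporters showed few calls. Of 23 other amino acid carriers (peptide, vesicular, mitochondrial and lysosomal), 14 were kept on MOE430A and 8 on MOE430B, and 0 passed in either comparison. Of 39 genes of amino acid sensing to mTORC1, 27 and 18 were kept, and 0 passed between Ad and Pp. Between the fragments and the whole embryo, Sh3bp4 was higher and Rragc lower on MOE430A (2 of 27, beside 9.78% of all). Rragc, a Rag GTPase that recruits mTORC1 to the lysosome, was at 1882 and 1709.7 in Ad, 1743 and 2162 in Pp and 3315 in the whole embryo (log2 difference -0.67, limma adjusted p = 0.0293). Of 38 gene symbols listed for the Atf4 amino acid response, some of them older names of the same gene, 28 and 7 were kept and 0 passed between Ad and Pp. Of those tested, only the asparaginyl-tRNA synthetase gene Nars was called, lower in the fragments on MOE430A (log2 difference -0.53, limma adjusted p = 0.0240). That is 1 of 28, beside 9.78% of all. Cebpb of the same list, singled out after its values were seen, lay below the filter and was not tested. It was at 277 and 307 in Ad, 319 and 312 in Pp and 1535.5 in the whole embryo. Median log2 differences of these 3 lists lay between -0.12 and 0.11 for Ad minus Pp and between -0.17 and 0.16 for fragments minus whole embryo over both array types.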

How the data were processed

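RNA of 10 samples was hybridised to Affymetrix arrays, 5 of MOE430A and 5 of MOE430B, after linear amplification per the labels' protocols. The deposited intensity values are linear MAS5 signals, per the submitters' processing notes. The sources used here give no version, scaling target or floor for it. Median signal per array was 590.3 to 644 for MOE430A and 56.8 to 61.0 for MOE430B. Arrays have no counts, and their number limits the precision.

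The array types were fitted separately with limma 3.58.1 (R 4.3.3), leaving out 64 control probe sets each. Values became log2(signal + pseudocount), with the 20th percentile (247 and 10.5) as pseudocount, and each array was centred on its median. A probe set was kept if its mean exceeded the 40th percentile (a signal of 464 and 37.2). The model (2 residual degrees of freedom) gave 2 contrasts, of Ad against Pp and of the average fragment against the whole embryo. Tests were two-sided, with Benjamini-Hochberg adjustment over every kept probe set of an array type. The script was tested on simulated data. Folds are fitted values, which the pseudocount draws towards 1.

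The platform annotation gave 1 symbol to 20393 and 14674 probe sets, several to 691 and 245 and none to 1606 and 7656. RefSeq (GRCm38.p6) changed 0 symbols. A MOE430B probe set naming a member and another gene was left out. "Brightest" is a gene's probe set with the highest mean log2 value. Named, mostly with array values, were called members, the brightest and furthest-apart member of each family, Slc7a3, and the heavy and light chains. Members, lists and settings were chosen with earlier results of these data known. Replicate numbers in the titles are not said to pair samples.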

Additional observations from a re-analysis of the deposited data

How the results depend on the processing

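Fits were repeated without centring, with quantile or cyclic loess scaling, with the 40th percentile or nothing as pseudocount, with the filter dropped or set at the 60th percentile, with an intensity trend, with the replicate number as a block, without probe sets ending in _s_at or _x_at, and without each Ad or Pp array. With every array in, 0 transporters passed between Ad and Pp in all of these. With an array left out, 0 to 6 passed on MOE430A and 0 on MOE430B. Between fragments and whole embryo, 2 to 12 passed on MOE430A and 1 to 7 on MOE430B; leaving out an Ad array gave the low ends and a Pp array the high ends. The number passing over all kept probe sets moved the same way on both array types. It fell without an Ad array and rose without a Pp array, so the change was not confined to the transporters. With no pseudocount 5 transporters passed on MOE430B in fragments minus whole embryo.

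The replicate block gave 0 transporter calls between Ad and Pp on both types and 4 on each between fragments and whole embryo. Over all probe sets it gave 24 and 865 calls on MOE430A and 29 and 396 on MOE430B. Same-numbered Ad and Pp arrays deviated with r = -0.24 on MOE430A and -0.039 on MOE430B across probe sets. Crosswise pairing on MOE430A, chosen after seeing the data, gave 0 and 4 transporter calls and 47 and 1834 in all.

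The median for fragments minus whole embryo on MOE430A was -0.0885 without centring, -0.0544 under cyclic loess, 0.0270 with no filter and -0.0457 with the stricter one, and -0.0474 to 0.000913 with an array left out. On MOE430B it was 0.0232 with no filter and 0.117 to 0.164 with an array left out. For Ad minus Pp it was 0.0223 without centring on MOE430A, and with an array left out -0.0604 to -0.0215 on MOE430A and -0.196 to -0.150 on MOE430B.

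Signs turned only for differences that did not pass with all arrays. Without centring these were Slc3a1 (0.00690), the dimmer Slc7a6 probe set (0.0100) and Slc1a5 on MOE430B (0.0522) in Ad minus Pp. In fragments minus whole embryo they were Slc7a9 (-0.0504), the brightest Slc7a6 probe set (-0.0714) and Slc7a10 (-0.0517). The last 3 turned under cyclic loess too (-0.0247, -0.0455 and -0.0197), and the brightest Slc7a6 probe set with no filter (-0.00609) and the stricter filter (-0.0146). Slc3a2 turned in Ad minus Pp with the stricter filter (-0.00308) and no pseudocount (-0.0109). The cause was not tested.

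With an array left out, signs turned in Ad minus Pp within -0.179 to 0.181 (Slc3a2), -0.156 to 0.0330 (Slc3a1), -0.176 to 0.398 (brighter Slc6a8), -0.229 to 0.113 (dimmer Slc7a6) and -0.384 to 0.164 (Slc1a5) on MOE430A. On MOE430B the ranges were -0.584 to 0.122 (Slc1a2), -0.457 to 0.115 (Slc38a1), -0.106 to 0.0587 (Slc1a5), -0.0123 to 0.119 (Slc7a15), -0.300 to 0.0474 (Slc7a1) and -0.441 to 0.698 (Slc38a2). In fragments minus whole embryo they were -0.0531 to 0.114 (Slc7a9), -0.00515 to 0.0638 (Slc7a10) and -0.0160 to 0.0354 (brightest Slc7a6) on MOE430A. On MOE430B they were -0.0133 to 0.0954 (Slc38a6), -0.0981 to 0.0150 (Slc6a11) and -0.00889 to 0.139 (Slc36a2).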
